A study of Homo sapiens with 4 samples.

Results

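The 10 genes described here encode transcription factors and cofactors that control the choice between blood stem cell, erythroid, megakaryocytic and mast cell fates: *GATA1*, *GATA2*, *GATA3*, *TAL1*, *LYL1*, *LMO2*, *RUNX1*, *KLF1*, *NFE2* and *ZFPM1*. They were selected by gene symbol from a table of 32673 genes, in which all 10 were found. RNA of imatinib-sensitive TF1-BA cells and imatinib-resistant TF1-BAR cells had been sequenced, with 2 libraries per cell line. TF1 is a human erythroleukaemia line that grows in GM-CSF, and TF1-BA cells carry the BCR-ABL oncogene delivered by a retrovirus. TF1-BAR cells were derived from them by months of continuous imatinib, a BCR-ABL tyrosine kinase inhibitor, so that both groups share the parental line and the oncogene and differ in the selection. Both were kept in 10% serum with GM-CSF, and the culture of the resistant cells contained 2 μM imatinib. Whether the drug was present at harvest was not given, and the resistant libraries are titled as vector libraries, so drug exposure and a vector cannot be told apart from resistance. Each cell line is a single derivation, and nothing states that the 2 libraries of a line came from separate cultures, so p-values measure only the spread between these libraries.

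GATA factors bind the DNA sequence GATA through zinc fingers, and GATA1 takes over many sites from GATA2 as erythroid cells mature. TAL1 and LYL1 are related basic helix-loop-helix proteins that bind E-boxes together with E proteins such as TCF3, and the LIM protein LMO2, with LDB1, bridges them to GATA factors in a single complex. RUNX1 binds DNA with its partner CBFB. GATA2, TAL1, LYL1, LMO2 and RUNX1 occupy shared enhancers in stem and progenitor cells with the ETS factors ERG and FLI1. KLF1 activates red cell genes, NFE2 drives platelet production and globin transcription, and ZFPM1, also called FOG1, is the cofactor through which GATA1 acts in erythroid and megakaryocytic cells.

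The values are FPKM, that is fragment numbers scaled to transcript length and to the size of the library, and can therefore be compared between genes of a library. The fragments behind them were recovered as whole numbers, out of library totals between 15465497 and 18042299. The members had between 91 fragments (*GATA3* in TF1-BAR replicate 1) and 17308 fragments (*GATA2* in TF1-BAR replicate 2). Differences are given as log2 fold changes, TF1-BAR minus TF1-BA, after a pseudocount of 0.5 FPKM was added. They were tested with limma among 15519 genes that averaged 0.5 FPKM or more, a filter that all 10 members passed. The identity of the cells was checked on 10 genes of TF1 cells, all of which were expressed, with *CD34* at 24.7 to 61.2 FPKM and *PTPRC* (CD45) at 35.6 to 44.3 FPKM. Markers of other cell types were mostly near 0, but not all. Exceptions that differed between the cell lines included *CD79B* (2.56 to 7.84 FPKM), *KRT18* (32.2 to 55.8 FPKM), *KRT8* (8.82 to 12.8 FPKM) and *CD3D* (5.74 to 20.7 FPKM). *PECAM1* (23.3 to 25.7 FPKM) and *LYZ* (13.6 to 16.5 FPKM) were exceptions that did not pass. All of these were detected in all libraries, and their part in the results was not tested. In bulk RNA, fewer cells with a transcript and less of it per cell cannot be told apart.

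Of the 10 genes, *TAL1*, *RUNX1*, *LYL1*, *NFE2* and *GATA2* were upregulated in the TF1-BAR cells and *GATA3* was downregulated, all by less than 2-fold. An adjusted p under 0.05 was reached by 6 of the 10 members, against 26.9% of all genes tested. Of these, 5 were higher, against 16.3% of genes tested, and 1 was lower, against 10.5%. 0 members also reached an absolute log2 fold change of 1, against 4.75% of genes tested (3.05% higher and 1.69% lower). By unadjusted p, 7 members were under 0.05, against 42.2% of genes tested, and 0 of them reached that fold change, against 5.28%. With limma voom on the recovered fragments, 0 members passed both thresholds, against 7.39% of genes. The TF1-BAR libraries lay entirely above the TF1-BA libraries for the same 5 members and entirely below for *GATA1*, *GATA3*, *KLF1* and *ZFPM1*, against 69.3% of genes tested with libraries that did not overlap in either direction (40.9% higher and 28.4% lower). The median log2 fold change of the members was 0.23, and that of all genes tested was 0.066. The adjusted p depended on single libraries. Without TF1-BA replicate 1 or without TF1-BA replicate 2, a single sensitive library remained. The calls of the members were then lost, as were most of those over all genes. The log2 fold changes in these fits were 0.77 and 0.75 for *TAL1*, 0.49 and 0.47 for *RUNX1* and 0.42 and 0.38 for *LYL1*. They were 0.41 and 0.30 for *NFE2*, 0.28 and 0.22 for *GATA2* and −0.73 and −0.83 for *GATA3*. Without TF1-BAR replicate 2, *TAL1*, *RUNX1* and *GATA3* passed, with 9.73% of all genes, and without TF1-BAR replicate 1 these and *LYL1* and *NFE2* passed, with 21.9%.

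**Figure D1:**
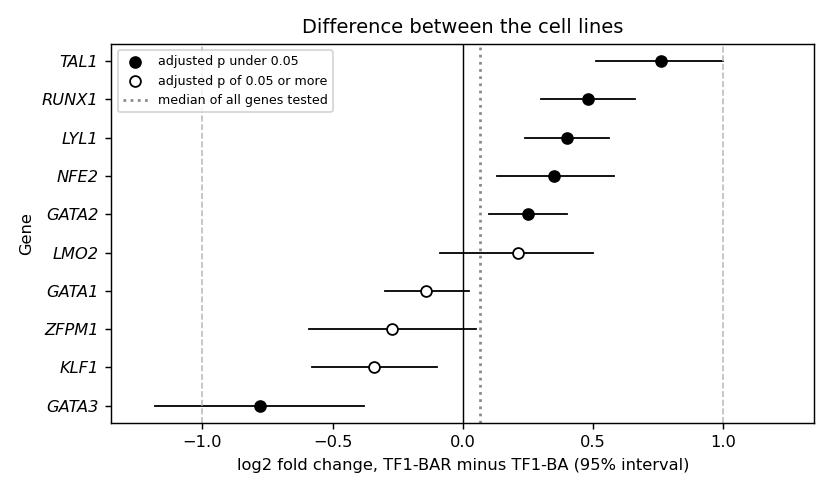
Log2 fold change of each of the 10 genes, TF1-BAR minus TF1-BA, from limma on log2(FPKM + 0.5), with 95% intervals (n = 2 libraries per cell line). Filled points had an adjusted p under 0.05, dashed lines mark a log2 fold change of 1 in either direction and the dotted line is the median of all genes tested (0.066); *TAL1* is highest at 0.76 and *GATA3* lowest at −0.78.

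Of the GATA factors, *GATA2* and *GATA1* were abundant and *GATA3* was rare. *GATA2* (ENSG00000179348, chromosome 3 of GRCh38 from 128479427 to 128493185, minus strand) maintains stem cells, progenitors and mast cells. It had 204 and 195 FPKM in the TF1-BA libraries and 233 and 241 FPKM in the TF1-BAR libraries. Both resistant libraries were higher than both sensitive ones, and in each library at least 99.2% of the genes tested had a lower level. The mean rose from 199 ± 6.53 FPKM (SD, n = 2) to 237 ± 5.92 FPKM (n = 2), which is 0.25 on the log2 scale (adjusted p = 0.0339, standard error 0.0567). Small as it was, this change did not pass under 7 of 15 alternatives, among them quantile normalization (0.16, adjusted p = 0.0752) and leaving out any single library.

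*GATA1* (ENSG00000102145, chromosome X from 48786554 to 48794311, plus strand) directs erythroid and megakaryocytic maturation. It had 75.4 and 74.7 FPKM in the TF1-BA libraries and 65.9 and 70.6 FPKM in the TF1-BAR libraries. The groups did not overlap, with the resistant libraries lower, but the log2 fold change of −0.14 (standard error 0.0626, 95% interval −0.30 to 0.024) had an adjusted p of 0.164 and passed in 0 of 15 alternatives. The interval leaves room for a decrease of 0.30 on the log2 scale, for no difference and for an increase of 0.024.

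The ratio of *GATA2* to *GATA1* within a library is unaffected by a scaling factor common to all genes of that library, although quantile normalization brought the log2 fold changes of the pair closer (0.16 and −0.10). In the TF1-BA libraries *GATA2* had 2.70 and 2.61 times the FPKM of *GATA1*, and in the TF1-BAR libraries 3.54 and 3.42 times. The ratio was therefore higher in both resistant libraries, with means of 2.66 and 3.48. The ratio was not tested.

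*GATA3* (ENSG00000107485, chromosome 10 from 8053604 to 8075198, plus strand) is the GATA factor of T cells and is also found in early progenitors and mast cell precursors. It had 4.12 and 3.82 FPKM in the TF1-BA libraries and 1.77 and 2.47 FPKM in the TF1-BAR libraries, from 242, 192, 91 and 129 fragments. Both resistant libraries were lower, and they differed from each other by more than the sensitive ones did. The mean fell from 3.97 ± 0.217 to 2.12 ± 0.489 FPKM, a ratio of 0.534, or −0.78 on the log2 scale (adjusted p = 0.0253, standard error 0.155). The median log2 fold change of the other 592 genes tested on chromosome 10 was −0.34, and 15.2% of them lay below *GATA3*. Relative to that median *GATA3* was lower by a further −0.44 on the log2 scale, and the 95% interval of its own change ran from −1.18 to −0.38. Of 11 T cell markers in the table, *CD3E*, *CD3G*, *CD2* and *LCK* had at most 3 fragments in any library. For *IL7R*, 53 and 42 fragments were found in sensitive and 0 in both resistant libraries, while *TCF7* had 147 and 166 against 189 and 235 fragments (log2 fold change 0.34, adjusted p = 0.196) and *TRAC* 3 and 3 against 4 and 7. The summed level of these 11 markers was 21.1 and 22.9 FPKM in the TF1-BA libraries and 7.55 and 8.89 FPKM in the TF1-BAR libraries. That sum consisted mostly of *CD3D*, which fell from 19.2 and 20.7 FPKM to 5.74 and 6.36 FPKM (log2 fold change −1.64, adjusted p = 0.00282).

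Among the helix-loop-helix and LIM proteins, *TAL1* showed the largest increase of the 10 members. *TAL1* (ENSG00000162367, chromosome 1 from 47216290 to 47232220, minus strand) is needed for the formation of all blood lineages and later for erythroid and megakaryocytic cells. It had 22.0 and 21.7 FPKM in the TF1-BA libraries and 34.4 and 40.6 FPKM in the TF1-BAR libraries, from 2264, 1916, 3092 and 3717 fragments. The sensitive libraries were almost equal and both resistant libraries stood well above them. The mean was 21.9 ± 0.198 FPKM in the TF1-BA cells and 37.5 ± 4.35 FPKM in the TF1-BAR cells, a 1.71-fold difference, or 0.76 on the log2 scale (standard error 0.0952, 95% interval 0.51 to 1.00, adjusted p = 0.00976). Of all genes tested, 6.96% had a higher log2 fold change. It passed in 13 of 15 alternatives and missed only without TF1-BA replicate 1 (adjusted p = 0.0664) or replicate 2 (adjusted p = 0.0685).

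*LYL1* (ENSG00000104903, chromosome 19 from 13099033 to 13103161, minus strand), the closest relative of *TAL1*, supports stem cells and lymphoid progenitors and can stand in for TAL1 in adult stem cells. It had 35.4 and 34.6 FPKM in the TF1-BA libraries and 45 and 47.7 FPKM in the TF1-BAR libraries. Both resistant libraries were higher, and replicates of a line were close. The 1.32-fold difference was 0.40 on the log2 scale (adjusted p = 0.0153, standard error 0.0635) and passed in 12 of 15 alternatives. *LYL1* remained more abundant than *TAL1* in every library, but the *TAL1* to *LYL1* ratio was 0.622 and 0.629 in sensitive cells and 0.765 and 0.851 in resistant cells. This ratio was not tested.

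*LMO2* (ENSG00000135363, chromosome 11 from 33858576 to 33892289, minus strand), the bridging LIM protein, was the only member whose groups overlapped. It had 43.0 and 36.6 FPKM in the TF1-BA libraries and 49.3 and 42.6 FPKM in the TF1-BAR libraries. In both lines replicate 1 was the higher one, and TF1-BA replicate 1 lay above TF1-BAR replicate 2. The difference was 0.21 on the log2 scale (adjusted p = 0.233, standard error 0.114), with a 95% interval from −0.087 to 0.50 that includes both no difference and an increase like that of *LYL1*. It passed in 0 of 15 alternatives.

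The promoters of *TAL1*, *LYL1* and *KLF1* are shown because these members carry a GATA core, the bases GATAA on either strand, close upstream of a RefSeq transcription start, and because the first 2 are related genes that rose together while *KLF1* is a known target of GATA1. Each sequence is the 250 bases before the start on the gene's own strand (GRCh38.p14), 5′ to 3′, and capitals mark the core, which reads TTATC here.
TAL1, chr1:47232336-47232585, minus strand: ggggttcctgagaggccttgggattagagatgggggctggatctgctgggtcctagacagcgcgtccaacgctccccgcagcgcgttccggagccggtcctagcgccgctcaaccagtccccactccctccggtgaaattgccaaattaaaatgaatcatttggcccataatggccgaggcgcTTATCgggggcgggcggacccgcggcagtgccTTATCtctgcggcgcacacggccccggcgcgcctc
LYL1, chr19:13102859-13103108, minus strand: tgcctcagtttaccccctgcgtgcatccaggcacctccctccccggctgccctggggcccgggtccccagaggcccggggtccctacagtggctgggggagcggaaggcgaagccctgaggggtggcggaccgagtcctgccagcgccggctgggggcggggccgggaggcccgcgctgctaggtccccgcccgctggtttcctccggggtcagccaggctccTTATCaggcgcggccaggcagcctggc
KLF1, chr19:12887202-12887451, minus strand: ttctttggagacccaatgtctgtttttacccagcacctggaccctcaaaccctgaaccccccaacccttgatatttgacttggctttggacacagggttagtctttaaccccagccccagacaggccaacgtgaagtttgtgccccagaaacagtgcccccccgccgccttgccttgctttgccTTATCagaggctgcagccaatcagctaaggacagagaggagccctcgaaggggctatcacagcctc

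The 2 cores of the *TAL1* window begin 67 and 35 bases before the start, that of *LYL1* 27 bases and that of *KLF1* 66 bases before it. The RefSeq table held 15 windows for 8 members, and none was used for *LMO2* and *NFE2*. GATAA was found in 4 of the 15 windows (26.7%), those above and 1 of the 6 windows of *GATA3*, against 20.4% of 35116 windows of the same length in the genome, so its presence does not set the members apart. A pair of cores or more was found in 1 of the 15 windows (6.67%), that of *TAL1*, against 3.87% of all windows. The RUNX core TGTGGT, searched on both strands, was found in 2 of the 15 windows (13.3%), the other *TAL1* window and 1 of *GATA3*, against 11% of all windows. A match is only a match of letters, and binding was not measured here.

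*RUNX1* (ENSG00000159216, chromosome 21 from 34787801 to 36004667, minus strand) is required for the emergence of blood stem cells and for megakaryocyte maturation, and is often altered in leukaemia. It had 7.16 and 7.03 FPKM in the TF1-BA libraries and 10.2 and 10.0 FPKM in the TF1-BAR libraries. The replicates of each line were nearly equal and the groups were well apart. The mean was 7.09 ± 0.0875 FPKM in the TF1-BA cells and 10.1 ± 0.126 FPKM in the TF1-BAR cells, a 1.42-fold difference, or 0.48 on the log2 scale (standard error 0.0712, 95% interval 0.30 to 0.66, adjusted p = 0.0129). It passed in 13 of 15 alternatives, with log2 fold changes between 0.44 and 0.57, and missed only without either TF1-BA library (adjusted p = 0.0999 and 0.107). *RUNX1* had 1694 to 2506 fragments in a library, and the annotated length at which these are whole numbers is 15574 bases, the exons of all its transcripts together. The table gives a single value per gene, so the long and short forms of *RUNX1* were not separated.

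*KLF1* and *ZFPM1* had lower values in the TF1-BAR cells, by amounts that did not pass. *KLF1* (ENSG00000105610, chromosome 19 from 12884423 to 12887181, minus strand), the erythroid Krüppel-like factor, had 57.8 and 64.7 FPKM in the TF1-BA libraries and 45.4 and 51.1 FPKM in the TF1-BAR libraries. All resistant values were below all sensitive ones. The log2 fold change of −0.34 (standard error 0.0921, 95% interval −0.58 to −0.10) had an adjusted p of 0.0519, just short of the threshold, and passed in 5 of 15 alternatives, with an adjusted p between 0.0114 and 0.26.

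*ZFPM1* (ENSG00000179588, chromosome 16 from 88453317 to 88537016, plus strand), the GATA1 cofactor, was expressed far below its partner. It had 4.91 and 5.07 FPKM in the TF1-BA libraries and 3.60 and 4.55 FPKM in the TF1-BAR libraries. The resistant libraries were lower but spread apart, and the log2 fold change of −0.27 (standard error 0.125, 95% interval −0.59 to 0.052) had an adjusted p of 0.170. *GATA1* had 15.4 and 14.7 times the FPKM of *ZFPM1* in the TF1-BA libraries and 18.3 and 15.5 times in the TF1-BAR libraries.

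*NFE2* (ENSG00000123405, chromosome 12 from 54292111 to 54301121, minus strand), the large subunit of a dimer with small MAF proteins, went the other way. It had 39.6 and 36.9 FPKM in the TF1-BA libraries and 45.9 and 52.4 FPKM in the TF1-BAR libraries. Both resistant libraries were higher, and the difference was 0.35 on the log2 scale (adjusted p = 0.0423, standard error 0.0881). It passed in 9 of 15 alternatives, and was 0.26 without TF1-BAR replicate 2 (adjusted p = 0.10).

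**Figure D2:**
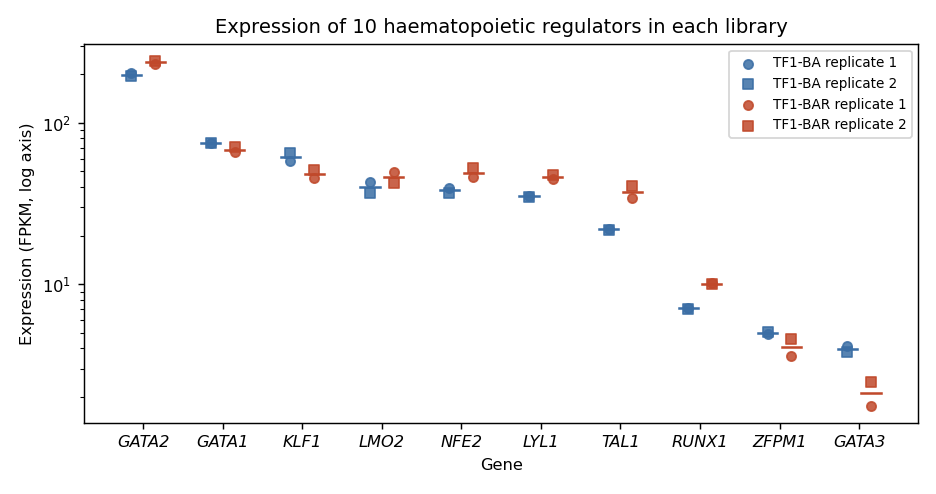
FPKM of the 10 genes in each library on a log axis, ordered by the TF1-BA mean, with TF1-BA in blue, TF1-BAR in red, circles for replicate 1, squares for replicate 2 and short lines for the group means. *GATA2* is highest at 195 to 241 FPKM and *GATA3* lowest at 1.77 to 4.12 FPKM, and *TAL1* shows the widest gap between the groups among the abundant genes.

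In order of level, the TF1-BA cells had *GATA2*, *GATA1*, *KLF1*, *LMO2*, *NFE2*, *LYL1*, *TAL1*, *RUNX1*, *ZFPM1* and *GATA3*. The libraries of neighbouring genes in this order overlapped only for *LMO2* and *NFE2*. In the TF1-BAR cells *NFE2*, *KLF1*, *LYL1* and *LMO2*, with means of 49.2, 48.3, 46.3 and 45.9 FPKM, overlapped each other and could not be ordered, and the remaining places were as before. *GATA2* alone gave 40.6% to 43.6% of the summed FPKM of the 10 genes. The share of *GATA1* was 15.3% and 15.6% in TF1-BA against 12.3% and 12.5% in TF1-BAR, and that of *TAL1* was 4.46% and 4.53% against 6.44% and 7.2%.

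Each member was set beside the 20 nearest genes tested, 10 on each side. The log2 fold change of *RUNX1* was above all 20 of its neighbours, whose median was −0.10, and that of *TAL1* was above 19 of 20, with a neighbour median of 0.0093. *GATA2* and *NFE2* each lay above 17 of their neighbours, *LYL1* above 15 and *LMO2* above 13. *GATA1*, *KLF1* and *ZFPM1* each lay below 18 of theirs, with neighbour medians of 0.16, −0.081 and 0.18. *GATA3* lay below 17, but its neighbours were themselves lower, with a median of −0.24 and a range from −1.25 to 0.98. The median of chromosome 10, which carries *GATA3*, was −0.34. The other chromosomes that carry a member had medians between 0.049 and 0.12. *KLF1* and *LYL1* lie 212 kb apart on chromosome 19, and their 95% intervals (−0.58 to −0.10 and 0.24 to 0.56) did not overlap. None of the 11 genes tested between them had an adjusted p under 0.05 by limma, with log2 fold changes from −0.61 to 0.84.

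Reads from overlapping genes could enter these values, since the library kit is not stated to keep the strand. The neighbour that exceeded *TAL1* was *AL135960.1*, an antisense gene within its position, with 1.80 and 2.36 FPKM in the TF1-BA libraries and 4.57 and 4.07 FPKM in the TF1-BAR libraries (log2 fold change 0.91, adjusted p = 0.0146). It had 131 to 291 fragments in a library and *TAL1* 1916 to 3717, and the reads of the pair cannot be told apart by strand. *GATA2-AS1*, which overlaps *GATA2*, had 8.64 to 10.7 FPKM and a log2 fold change of 0.18 (adjusted p = 0.217). The other genes that overlap a member had at most 37 fragments in any library.

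Of 20 genes for proteins that work with the members, 18 were tested, and 5 were higher and 1 lower with an adjusted p under 0.05. These are 33.3% of those tested, near the 26.9% of all genes, and the median log2 fold change was 0.19. The ETS factor *ERG* had 4.18 and 4.50 FPKM in the TF1-BA libraries and 15.8 and 19.5 FPKM in the TF1-BAR libraries (log2 fold change 1.90, adjusted p = 0.0037). *FLI1*, its relative, had 23.3 and 22.9 FPKM against 37.7 and 42.4 FPKM (0.78, adjusted p = 0.00696). *SPI1* (PU.1), the myeloid factor that opposes GATA1, had 30.2 and 32.4 FPKM against 42.3 and 50.8 FPKM (0.56, adjusted p = 0.0226). *CBFA2T2*, a corepressor of the ETO family, rose by 0.57 (adjusted p = 0.0115), and *SSBP3*, which stabilises LDB1, by 0.50 (adjusted p = 0.026). *LDB1* itself, the dimerising partner of LMO2, was lower, with 139 and 141 FPKM in the TF1-BA libraries and 102 and 113 FPKM in the TF1-BAR libraries (−0.38, adjusted p = 0.0219). The E protein *TCF3* (log2 fold change 0.092, adjusted p = 0.358) and the RUNX partner *CBFB* (−0.19, adjusted p = 0.367) did not pass. Neither did the small MAF partners of NFE2, *MAFF* (0.47, adjusted p = 0.132), *MAFG* (0.051, adjusted p = 0.726) and *MAFK* (−0.087, adjusted p = 0.555), of which *MAFF* was higher in both TF1-BAR libraries.

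**Figure D3:**
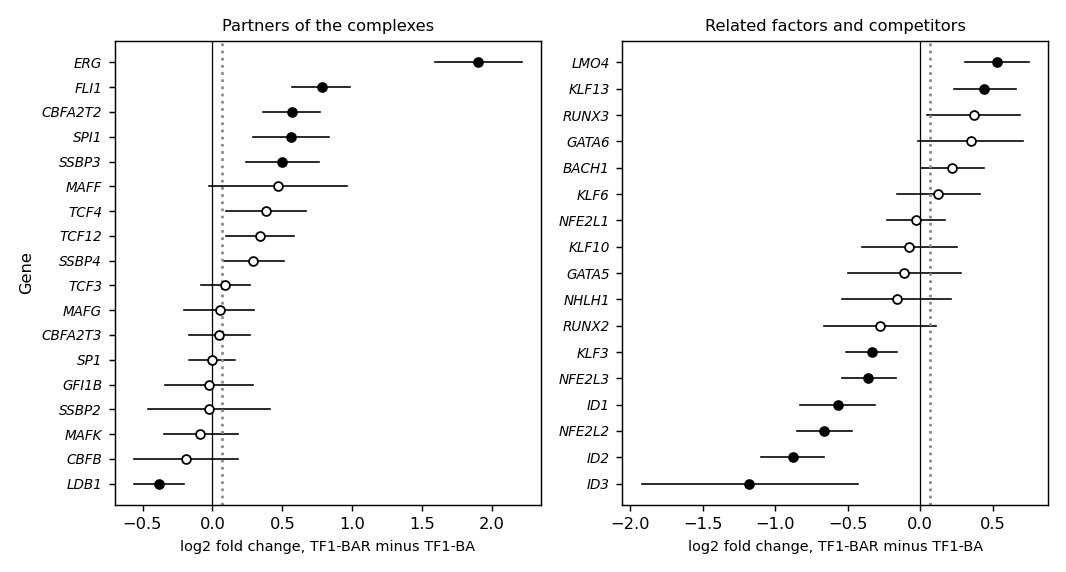
Log2 fold change, TF1-BAR minus TF1-BA, with 95% intervals, of the tested partner genes (left) and of related factors and competitors (right). Filled points had an adjusted p under 0.05 and the dotted line is the median of all genes tested; *ERG* is highest at 1.90 and *LDB1* the only filled partner below 0, and *ID1*, *ID2* and *ID3* are all filled and below 0.

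Of 27 related factors and competitors, 17 were tested, and 2 were higher and 6 lower (47.1% of those tested, against 26.9% of all genes), with a median log2 fold change of −0.11. The ID proteins lack a DNA-binding region and capture the E proteins that TAL1 and LYL1 need. *ID2* had 29.1 and 26.1 FPKM in the TF1-BA libraries and 15.2 and 14.3 FPKM in the TF1-BAR libraries (log2 fold change −0.88, adjusted p = 0.00624). *ID3* had 3.24 and 3.06 FPKM against 0.706 and 1.66 FPKM (−1.18, adjusted p = 0.041), with 20 and 48 fragments in the TF1-BAR libraries. *ID1*, named after its values were seen, fell by 0.57 (adjusted p = 0.0195), so that all 3 ID genes tested were lower. *NFE2L2*, a relative of *NFE2* that controls the antioxidant response, fell by 0.66 (adjusted p = 0.00776). *LMO4* rose by 0.53 (adjusted p = 0.016) and *KLF13* by 0.44 (adjusted p = 0.0229). The paralogs *RUNX2* and *RUNX3* had 1.10 to 7.19 FPKM and *GATA5* and *GATA6* had 0.857 to 1.39 FPKM, and none of these 4 passed by limma (adjusted p of 0.224, 0.0877, 0.612 and 0.13).

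Genes of the erythroid, megakaryocyte and mast cell or basophil lineages differed in both directions. Their lists, like those of the partners and related factors above, were chosen with earlier results of these data known. The shares of called genes in these lists may therefore in part follow from that choice. Among 26 erythroid genes, 23 were tested, and 13 were higher and 3 lower (69.6% of those tested, against 26.9% of all genes, median log2 fold change 0.44). *TRIM10*, an erythroid ubiquitin ligase, had 5.55 and 5.20 FPKM in the TF1-BA libraries and 17.1 and 19.1 FPKM in the TF1-BAR libraries (log2 fold change 1.66, adjusted p = 0.00282). The glycophorin gene *GYPE* also rose (1.79, adjusted p = 0.00289). *GYPB* had 2 and 4 fragments in TF1-BA and 24 and 21 in TF1-BAR (1.66, adjusted p = 0.00952), and it passed the filter on low values only through the TF1-BAR libraries, so its call among the 13 higher genes is partly set by the filter. *GYPE* and *GYPB* are near-identical, so the division of reads between them is uncertain. The Rh genes *RHCE* (−0.73, adjusted p = 0.00804) and *RHD* (−0.44, adjusted p = 0.0315), which share reads in the same way, were lower. *EPOR*, the erythropoietin receptor, did not pass (0.28, adjusted p = 0.0977).

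Among 18 megakaryocyte genes, 12 were tested, and 6 were higher and 1 lower (58.3%, against 26.9% of all genes, median log2 fold change 0.37). *GP1BA*, part of the receptor for von Willebrand factor, rose by 1.27 (adjusted p = 0.00409), *RAB27B* by 0.86 (adjusted p = 0.0207) and the integrin *ITGA2B* by 0.43 (adjusted p = 0.0204). *TUBB1*, the platelet tubulin and a known target of NFE2, was lower (−0.76, adjusted p = 0.0304), with 61 to 80 fragments in the TF1-BA libraries and 27 to 29 in the TF1-BAR libraries.

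Among 15 mast cell and basophil genes, a list that includes *GATA2*, 13 were tested, and 9 were higher and 3 lower (92.3%, against 26.9% of all genes, median log2 fold change 0.78). *KIT*, the stem cell factor receptor, had 28.4 and 25.4 FPKM in the TF1-BA libraries and 58.7 and 59.3 FPKM in the TF1-BAR libraries (log2 fold change 1.12, adjusted p = 0.00409). *HDC*, which makes histamine, rose by 1.21 (adjusted p = 0.00374). *CPA3*, a mast cell protease, had 2 and 1 fragments in TF1-BA and 14 and 16 in TF1-BAR (log2 fold change 1.66, adjusted p = 0.00804), and it passed the filter on low values only through the TF1-BAR libraries, so its call among the 9 higher genes is partly set by the filter. *ENPP3* fell by 1.29 (adjusted p = 0.00581), *TPSB2* by 0.74 (adjusted p = 0.0071) and *PRG2* by 0.58 (adjusted p = 0.048). *TPSD1* rose by 1.21 (adjusted p = 0.00714), and like *TPSB2* it belongs to a tryptase cluster of near-identical genes whose reads may be divided wrongly. Whether any of these genes followed a change of the members was not tested, since the design holds a single comparison.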

How the data were processed

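RNA from 2 TF1-BA and 2 TF1-BAR samples was read by the authors as 150-bp paired ends and mapped to GRCh38 with TopHat2 2.0.13, followed by Cufflinks and Cuffdiff 2.2.0 per the labels. The deposited values are FPKM for 32673 genes in each library; the authors scaled them to transcript length and mapped reads and did not log transform them. The gene annotation release is not given in the sources used here. Columns were matched to samples by title.

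Library sizes were found from the FPKM that correspond to 1 fragment at GENCODE 44 exon lengths. With these sizes, 14220 genes gave whole fragments (within 0.001) at the annotated length and 16623 at a fitted length, of 30853 genes above 0. Of 300 genes taken from those at the annotated length, 0 were whole at that length with wrong sizes. The search for a fitted length was not run with wrong sizes, so the fragments at fitted lengths were not checked in this way. Of the members, 2 were whole at the annotated length and 8 at a fitted length. The precision that fragment numbers give is that of counting alone.

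The cell lines were compared on log2(FPKM + 0.5) by a linear model with trended eBayes (limma 3.58.1, R 4.3.3) for genes with a mean of at least 0.5 FPKM, with two-sided p-values adjusted over all 15519 genes by the Benjamini-Hochberg method. The pseudocount makes fold changes of low genes smaller than the ratio of their FPKM. The fit was tested on simulated data. The 15 alternatives were other pseudocounts, filters, scalings and eBayes forms, a replicate block, leaving out each library, and limma voom on recovered fragments. The members and gene lists were chosen with earlier results of these data known. Named genes are the members, the up to 3 genes per direction and list with the largest change among those with an adjusted p under 0.05, and 9 fixed genes; *SSBP3*, *MAFF*, *MAFG*, *MAFK*, *ID1*, the paralogs given by range and the overlapping genes are outside that rule and were chosen after their values were seen. Some genes that the rule names are not reported here. Promoter sequences are from RefSeq (GRCh38.p14).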

Additional observations from a re-analysis of the deposited data

How the results depend on the processing

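Over the 150 combinations of a member and an alternative, 0 changed direction. Of the 90 for the members with a call, 67 kept it and 23 lost it, 16 of these on leaving out a library. Of the 60 for the other members, 5 gained a call, all of them for *KLF1*. Members with an adjusted p under 0.05 numbered 6 (5 higher, 1 lower). Without the filter on low values, which raises the genes tested to 30853, they numbered 3 (3 higher, 0 lower), and 4.69% of all genes passed. eBayes without the trend gave 3 higher, and 19.9% of all genes passed, against 26.9% with it. There were 2 lower members (*GATA3* and *KLF1*) at a mean of at least 1 FPKM, with upper-quartile scaling, with robust eBayes, with limma voom and with the replicate block, the last of which kept 4 of the 5 higher ones and lost *NFE2*. In these fits 32.1%, 26.5%, 27.6%, 37.8% and 25.6% of all genes passed in either direction, in the order given. The cause was not tested. Leaving out a library gave 0 to 5 members, 0 to 4 of them higher and 0 to 1 lower, with fewer libraries to estimate the spread. Over all genes, those with an adjusted p under 0.05 numbered 4167, or 1446 without the filter and 518 to 3386 without a library. Those past both thresholds numbered 737, or 487 with a pseudocount of 1 FPKM, 1147 with limma voom and 429 to 794 without a library.

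Of the lists, the partners had 6 genes with an adjusted p under 0.05 (3 without the filter, 10 with limma voom, 1 to 8 without a library). The related factors and competitors had 8 (2 without the filter, 5 without the trend, 0 to 7 without a library). The erythroid genes had 16 (4 to 15 without a library), the megakaryocyte genes 7 (2 without the filter, 2 to 4 without a library) and the mast cell and basophil genes 12 (7 without the filter, 5 to 10 without a library). These counts are to be read beside the share of all genes that passed. That share was 26.9% with the settings described above, 4.69% without the filter, 19.9% without the trend and 37.8% with limma voom. The replicate numbers share only a number, since no source ties equal numbers to a shared culture or day. The deviations of same-numbered libraries had a correlation of 0.0646 across genes, and with the replicate block 3969 genes passed, *NFE2* did not (adjusted p = 0.0612) and *KLF1* did (adjusted p = 0.0266). The differences of *GATA1*, *LMO2* and *ZFPM1* did not pass in any alternative.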
